A study of Mus musculus with 12 samples.

Results

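Cytochrome P450 family 2 is the largest P450 family of the mouse. Its genes were taken as every gene of the deposited count table whose symbol is Cyp2 followed by a subfamily letter and a number, pseudogenes (-ps) left out. This rule gave 49 of 53599 genes, in 13 subfamilies. The enzymes sit in the endoplasmic reticulum, carry haem and receive electrons from P450 oxidoreductase (Por). They oxidise drugs, pollutants, steroids, bile acids, fatty acids and vitamin D. In the liver many of them are hallmarks of the mature hepatocyte, their genes are driven by liver-enriched transcription factors and by nuclear receptors that sense foreign compounds, and their transcripts are known to be lost soon after hepatocytes are plated.

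The 12 RNA-seq libraries came from mouse liver cells in 4 groups of 3: hepCLiP cells, derived from hepatocytes, and bilCLiP cells, derived from biliary epithelial cells (BEC), each in 2D and in 3D culture. All 4 groups were grown in small hepatocyte medium with 3 small molecules: Y-27632, which blocks ROCK, A83-01, which blocks TGF-beta receptors, and CHIR99021, which blocks GSK3. The 2D cultures lay on collagen with 10% FBS. The 3D cultures formed spheroids in microwells over 3 days without FBS and were then held in suspension for 6 to 8 days with 10 ng/ml oncostatin M, a cytokine that matures fetal hepatocytes. Geometry, serum and oncostatin M therefore changed together, and their parts cannot be told apart. By genotype tag, hepCLiP replicates 1 and 3 carried the RosaConfetti reporter, and hepCLiP replicate 2 and every bilCLiP library carried RosaYFP. Groups follow the sample titles, because the treatment tag of hepCLiP 2D replicate 3 reads 3D and those of the bilCLiP 3D libraries read 2D. Across genes, that hepCLiP 2D library resembled its 2D companions (Pearson's r of log2 CPM 0.960 and 0.968) more than hepCLiP 3D (0.836 to 0.867). Within the family it differed from those companions, as Cyp2c genes held 46.2% of its summed CPM against 7.41% and 6.74%. The bilCLiP 3D libraries were not checked in this way. Libraries held 16142365 to 21253382 counts. The reporters put hepCLiP replicate 2 in another animal than replicates 1 and 3. Beyond that, nothing in the labels says that replicates were separate animals or isolations, so a p-value here speaks of the spread among these libraries only, which may in part be technical.

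Levels are in CPM, counts divided by the TMM-scaled size of the library. Changes are log2 fold changes ± standard error (SE) from edgeR's quasi-likelihood test. A gene counts as called where its Benjamini-Hochberg adjusted p over the 14798 genes tested is under 0.05. The low-count filter kept 30 of the 49 genes. Another 13 had some count but too little to test, and 6 (Cyp2b19, Cyp2b23, Cyp2c66, Cyp2j7, Cyp2j12 and Cyp2j13) had no count in any library. A gene without a count in 2D passed the filter only through its 3D level, so counts over the 30 describe the genes that could be tested, not the whole family.

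Few genes of the family were expressed in 2D and many in 3D, in cells of both origins. At least 1 CPM was reached by 7 to 13 of the 49 genes per hepCLiP 2D library and by 28 to 30 per hepCLiP 3D library, and by 4 to 8 and 23 to 28 in bilCLiP. In hepCLiP, 25 of the 30 tested genes rose in 3D and none fell, against 16.9% of all tested genes called higher and 17.9% called lower. In bilCLiP, 27 rose and 1, Cyp2s1, fell, against 15.8% and 14.5%, and 24 genes rose in both origins. The median log2 fold change of the 30 was 6.49 in hepCLiP and 8.20 in bilCLiP, beside -0.06 and -0.00 over all genes. With genes that had no 2D count set to their lower bound (3 genes in hepCLiP, 11 in bilCLiP), the medians were 6.18 and 5.88. In the RosaYFP libraries alone, which leave 1 hepCLiP library per culture and take the spread from the bilCLiP groups, hepCLiP had 9 rises.

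**Figure D1:**
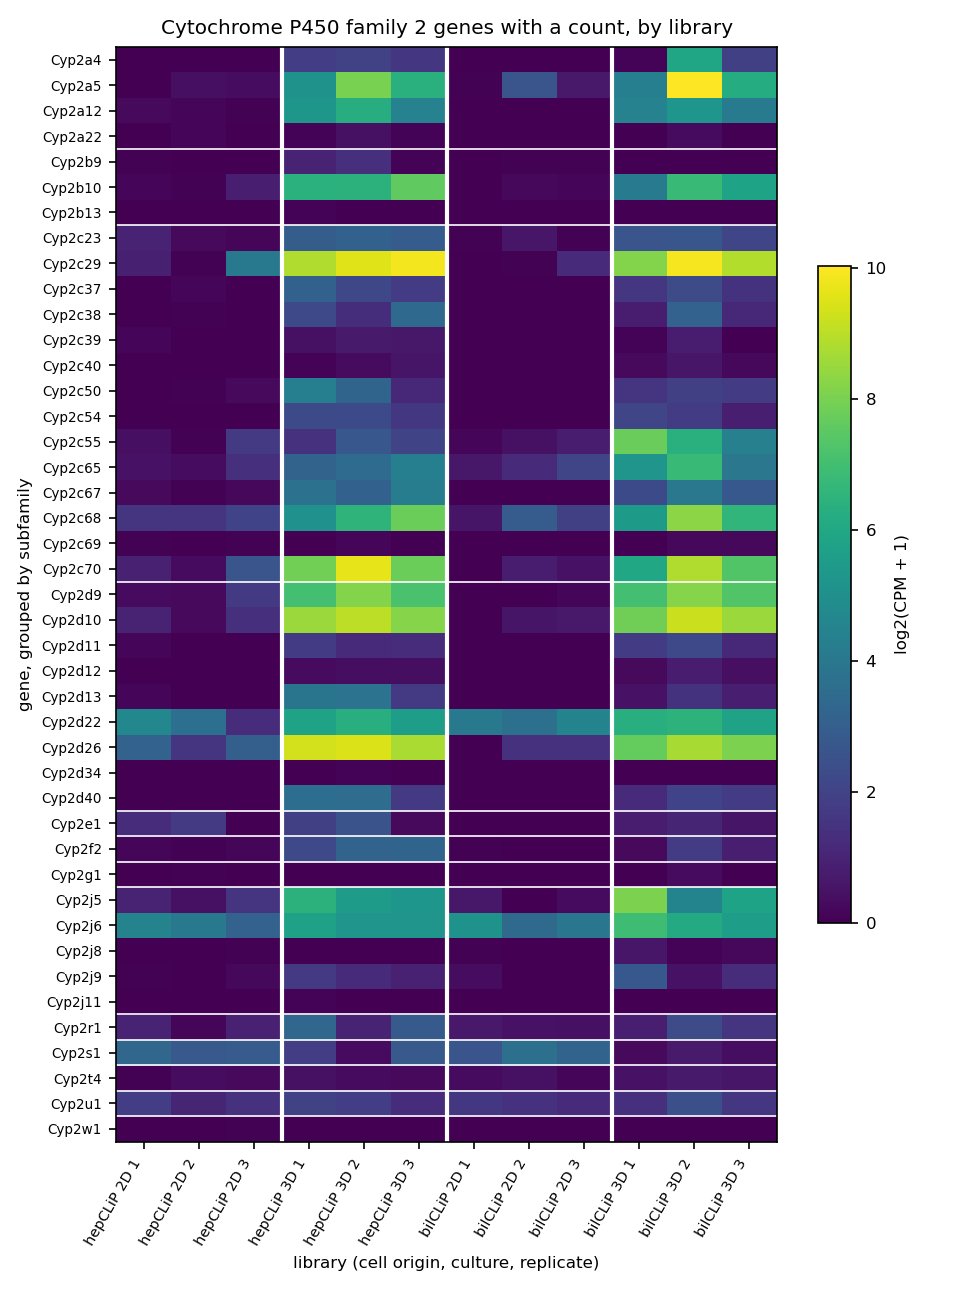
Heat map of log2(CPM + 1) for the genes of the family that had a count, 1 row per gene in subfamily order and 1 column per library. On the scale from dark (0) to yellow (about 10), the 2D columns of both origins are dark apart from a few rows such as Cyp2d22, Cyp2j6 and Cyp2s1, and the 3D columns are brightest in Cyp2c29, Cyp2c70, Cyp2d10, Cyp2d26 and, in bilCLiP replicate 2, Cyp2a5.

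Summed over the family, hepCLiP 2D libraries held 76.8, 43.2 and 61.5 CPM and hepCLiP 3D libraries held 2357, 3862 and 2743 CPM. In bilCLiP the sums were 59.6, 53.9 and 57.9 CPM in 2D and 1755, 4697 and 1880 CPM in 3D. Every 3D library lay far above every 2D library, and bilCLiP 3D replicate 2 stood above the other bilCLiP 3D libraries. The difference of the mean log2 sums was 49.6-fold in hepCLiP and 43.7-fold in bilCLiP (exact two-sided permutation test, p = 0.1 each, the smallest that 3 against 3 allows). As a share of all counts, the family went from 0.00712% ± 0.00204 (SD, n = 3) to 0.235% ± 0.0568 in hepCLiP and from 0.00698% ± 0.000489 to 0.239% ± 0.128 in bilCLiP. These are bulk cultures, so more cells that express the genes and more RNA per cell cannot be told apart.

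Markers of cell identity moved with the same contrast. The 6 hepatocyte markers summed to 117 to 1307 CPM in hepCLiP 2D, 42214 to 52360 in hepCLiP 3D, 42.5 to 743 in bilCLiP 2D and 17677 to 43615 in bilCLiP 3D. None of the 6 was at 0 in every library of a group, but Tat and Cps1 had no count in bilCLiP 2D replicate 1. Ttr gave 41.1 of the 42.5 CPM of that library and 675 of the 743 CPM of bilCLiP 2D replicate 2. The 3 squamous markers summed to 1618 to 3321 CPM over the 2D libraries and to 0.527 to 6.60 over the 3D libraries, nearly all of it Sprr1a, a cornified envelope protein, while the keratins Krt5 and Krt14 reached 0.866 CPM at most. The 4 mesothelial markers summed to 333 to 989 CPM in 2D and 5.57 to 27.8 in 3D, nearly all of it Msln, with Upk3b, Wt1 and Lrrn4 at 0.364 CPM at most. The 7 biliary markers summed to 3618 to 10914 CPM in 2D and 11345 to 33342 in 3D, where Spp1 gave 97.7% to 99.1% of the sum. Spp1 rose by 2.35 and 1.99 on the log2 scale in hepCLiP and bilCLiP, while the other 6 summed to 1125 to 2467 CPM in 2D and 129 to 379 in 3D. Of these, Krt19 (-6.62 ± 1.10 and -7.02 ± 1.12), Tspan8 (-3.44 and -2.42) and Cftr fell in both origins, Krt7 fell in hepCLiP (-3.18; -2.01, adjusted p = 0.114, in bilCLiP), and Epcam and Sox9 were not called. The 4 endothelial markers summed to 3.66 CPM at most and the 4 leukocyte markers to 19.5 at most, with Adgre1 at 0 in 3 of the 4 groups. The 6 fibroblast and stellate markers summed to 0.155 to 4.35 CPM in 2D and 3.61 to 283 in 3D, where Dcn gave 73.1% to 99.3%. The 283 was hepCLiP 3D replicate 1, where Dcn had 282 CPM against 2.64 to 17.8 in the other 3D libraries. The 3 enterocyte markers, mostly Vil1, summed to 19.6 to 450 and 86.0 to 210. The part of any of these shifts in the results on the family was not tested.

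**Figure D2:**
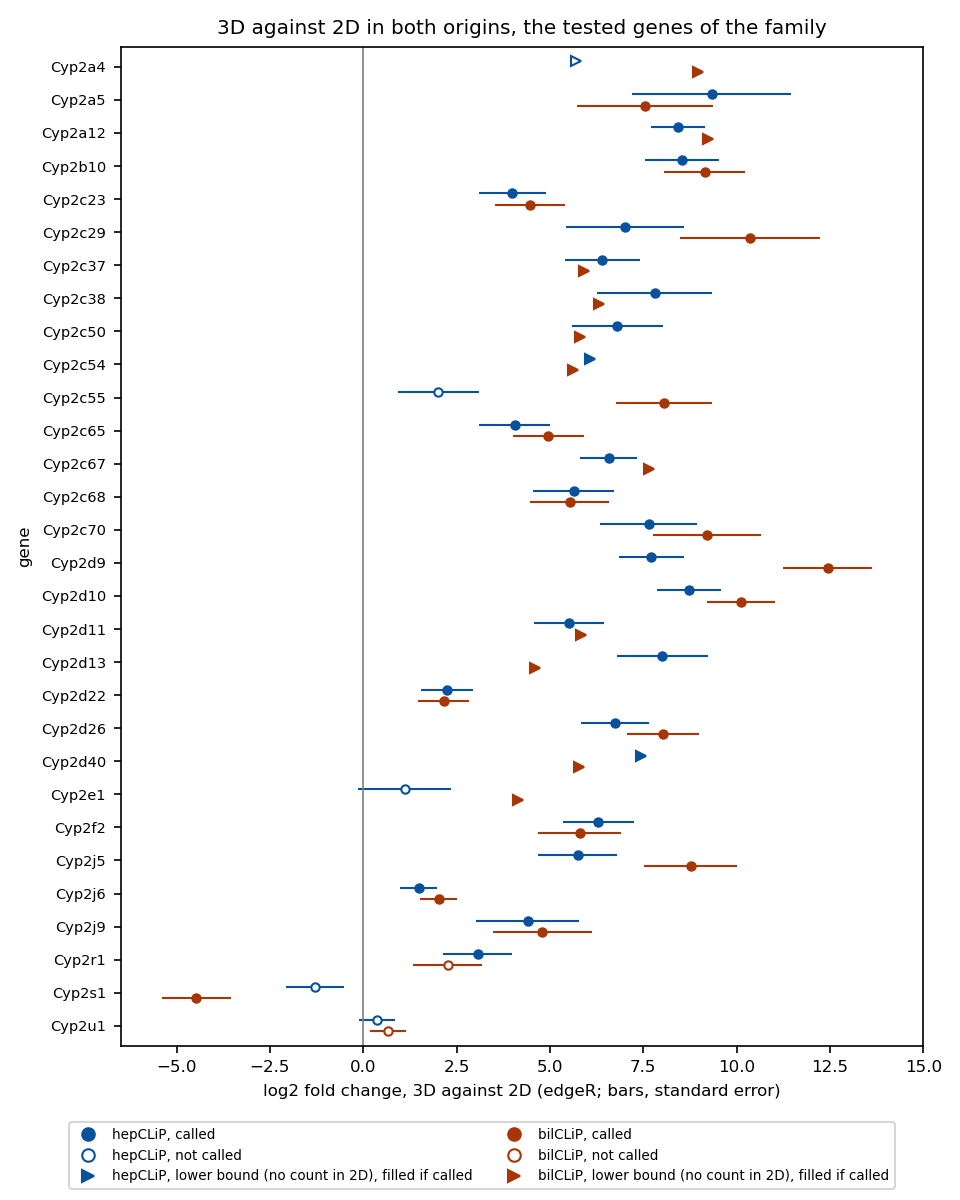
Log2 fold change of 3D against 2D for the 30 tested genes, hepCLiP in blue and bilCLiP in red-brown, with bars for the standard error, open symbols for genes not called and triangles for lower bounds of genes with no 2D count. All but Cyp2s1 lie to the right of 0, Cyp2u1, Cyp2j6, Cyp2d22, Cyp2r1 in bilCLiP, and Cyp2e1 and Cyp2c55 in hepCLiP lie nearest to 0 among the others, and Cyp2c55 lies far apart in the 2 origins.

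The Cyp2c subfamily, which holds the main epoxygenases of arachidonic acid in liver along with drug and bile acid hydroxylases, had 15 genes, 11 of them tested. All 11 rose in bilCLiP and 10 rose in hepCLiP, with Cyp2c55 as the exception. Cyp2c29, an inducible epoxygenase of mouse liver and the gene with the highest mean CPM of the family, had 0.833, 0.0455 and 15.7 CPM in hepCLiP 2D and 463, 750 and 922 in hepCLiP 3D. The bilCLiP libraries had 0, 0.0389 and 1.28 CPM in 2D and 284, 943 and 472 in 3D. Cultures did not overlap in either origin, and replicate 3 was the high library of both 2D groups. The log2 fold change was 7.02 ± 1.58 in hepCLiP (129-fold, adjusted p = 0.00628) and 10.37 ± 1.87 in bilCLiP (1322-fold, adjusted p = 0.00234). Without the 2D replicate 3 of each origin these became 10.65 and 14.35. The latter rests on the 1 count left in bilCLiP 2D.

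Cyp2c70, the enzyme that makes the muricholic acids typical of mouse bile, had 0.879, 0.227 and 5.30 CPM in hepCLiP 2D and 235, 817 and 218 in 3D. Levels in bilCLiP were 0, 0.700 and 0.410 CPM in 2D and 64.6, 457 and 157 in 3D. Replicate 2 was the highest 3D library of both origins. It rose by 7.64 ± 1.30 (200-fold, adjusted p = 0.00145) and 9.20 ± 1.44 (590-fold, adjusted p = 0.00112). Without hepCLiP 2D replicate 3 or 3D replicate 2 the hepCLiP value was 9.57 or 6.75, and without bilCLiP 2D replicate 2 or 3D replicate 2 the bilCLiP value was 10.09 or 8.18.

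Cyp2c68 was above 1 CPM in 5 of the 6 2D libraries, with 1.90, 1.86 and 3.10 CPM in hepCLiP 2D against 0.474, 6.49 and 2.73 in bilCLiP 2D. In 3D it had 32.7, 90.3 and 217 CPM in hepCLiP and 42.9, 312 and 96.3 in bilCLiP. It rose 49.6-fold (log2 5.63 ± 1.08, adjusted p = 0.00277) and 46.2-fold (5.53 ± 1.06, adjusted p = 0.00328). The log2 values were 4.76 without hepCLiP 3D replicate 3, 6.56 without bilCLiP 2D replicate 2 and 4.42 without bilCLiP 3D replicate 2. Cyp2c68 shares 19.8% of its 100-base windows with other genes, and its close copies Cyp2c67, Cyp2c69 and Cyp2c40 share 23.7%, 36.3% and 44.1% of theirs, so the split of reads among these 4 is uncertain.

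Cyp2c54 had no count in any 2D library, and 3.74, 3.76 and 2.08 CPM in hepCLiP 3D against 3.23, 2.35 and 0.812 in bilCLiP 3D. It was at least 67.5-fold higher in hepCLiP 3D (adjusted p = 0.00105) and at least 49.3-fold higher in bilCLiP 3D (adjusted p = 0.00151), against 3 counts summed over the 2D group. Cyp2c37, Cyp2c38 and Cyp2c50 also had no count in bilCLiP 2D and were at least 60.7-fold, 79.7-fold and 55.5-fold higher in bilCLiP 3D. Replicate 2 gave most of the Cyp2c38 level there (0.725, 7.86 and 1.16 CPM), and without it the bound was 22.6-fold. In hepCLiP 2D, Cyp2c37 had a count in replicate 2 only and Cyp2c38 likewise, and their count ratios were 94.6 (95% interval 31.9 to 463) and 319 (56.6 to 12645). Cyp2c50 had 0, 0.0455 and 0.200 CPM in hepCLiP 2D and 19.3, 8.30 and 1.25 in 3D, a log2 fold change of 6.80 ± 1.21 that was 8.35 without 2D replicate 3 and 5.87 without 3D replicate 1. All of these intervals and bounds cover counting error only.

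Cyp2c67 rose by 6.58 ± 0.76 in hepCLiP (adjusted p = 0.000414) and was at least 201-fold higher in bilCLiP, where 2D had no count (at least 116-fold without 3D replicate 2). Cyp2c65, known from the intestine, rose by 4.05 ± 0.95 (adjusted p = 0.00754) and 4.96 ± 0.94 (adjusted p = 0.00303), with 36.9, 111 and 14.6 CPM in bilCLiP 3D against 8.13, 10.3 and 19.3 in hepCLiP 3D. Its hepCLiP value was 5.16 without 2D replicate 3, and its bilCLiP value was 5.80 without 2D replicate 3 and 3.88 without 3D replicate 2. Cyp2c23, an epoxygenase also called Cyp2c44, was the gene most even across 3D libraries of hepCLiP, with 6.74, 7.59 and 6.67 CPM there and 5.20, 5.40 and 3.31 in bilCLiP 3D. It rose by 3.99 ± 0.90 (adjusted p = 0.00629) and 4.46 ± 0.94 (adjusted p = 0.00518), and by 5.56 without hepCLiP 2D replicate 1 and 6.51 without bilCLiP 2D replicate 2. The untested Cyp2c39, Cyp2c40 and Cyp2c69 stayed below 0.69 CPM in all 12 libraries.

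Cyp2c55, an epoxygenase of colon and induced liver, was the gene of the family whose 2 origins stood furthest apart in 3D. It had 0.324, 0.0455 and 2.25 CPM in hepCLiP 2D and 1.68, 5.53 and 3.20 in hepCLiP 3D, where the groups overlapped and the change did not pass (log2 2.01 ± 1.08, adjusted p = 0.171). Without hepCLiP 2D replicate 3 it was called, at 4.19 (adjusted p = 0.0371). The bilCLiP libraries had 0.129, 0.350 and 0.683 CPM in 2D and 211, 81.1 and 19.6 in 3D, and rose 267-fold (8.06 ± 1.28, adjusted p = 0.00119). The bilCLiP value was 8.70 without 2D replicate 3 and 7.03 without 3D replicate 1. Every bilCLiP 3D library lay above every hepCLiP 3D library, a log2 difference of 4.90 ± 1.07 that did not pass over all genes (edgeR adjusted p = 0.135, 3.84 without bilCLiP 3D replicate 1). DESeq2 called it (adjusted p = 0.00412). The difference between the 2 culture effects was 6.05 on the log2 scale, with an adjusted p of 1. It was 3.87 without hepCLiP 2D replicate 3, 6.68 without bilCLiP 2D replicate 3 and 4.95 without bilCLiP 3D replicate 1.

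**Figure D3:**
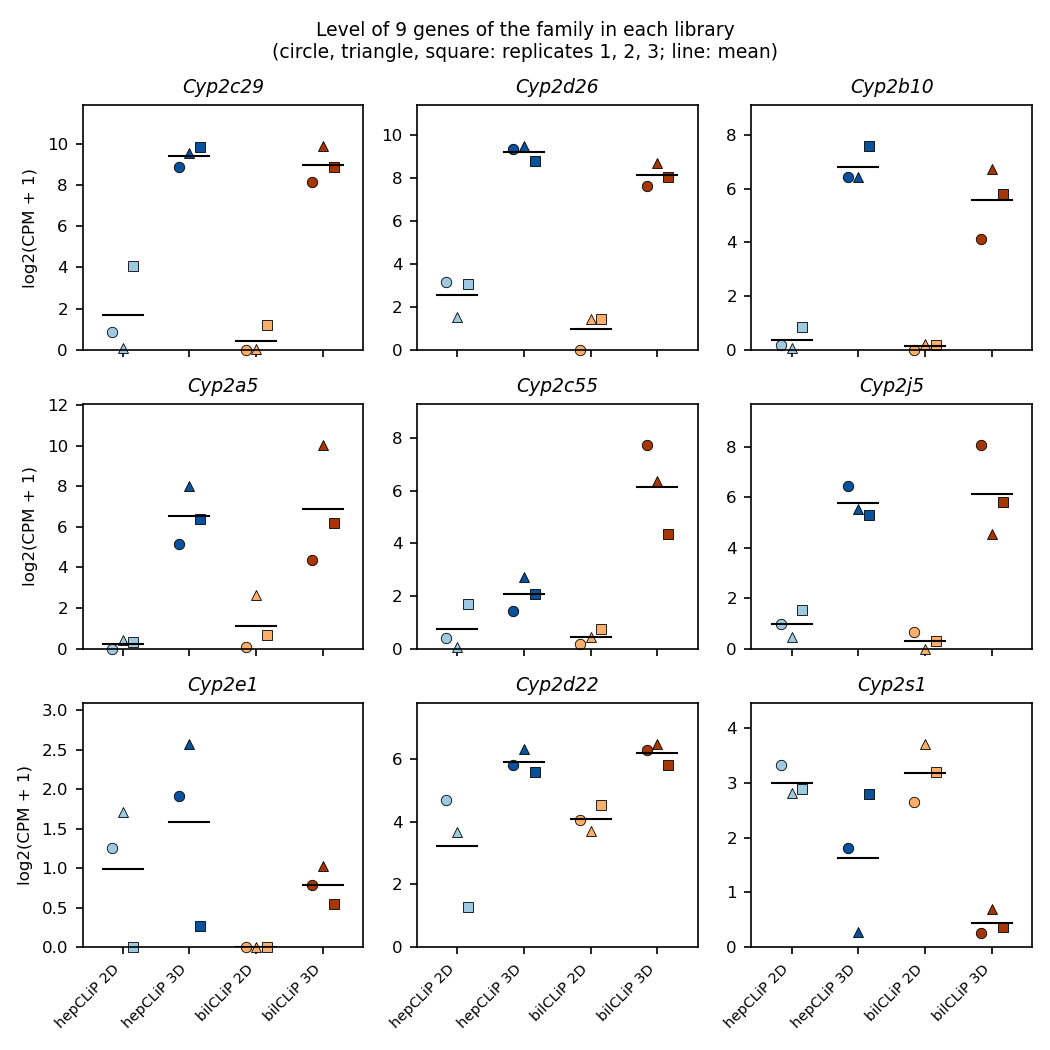
Levels of 9 genes of the family as log2(CPM + 1), 1 panel per gene, 1 point per library and a line at each group's mean. Cyp2c29, Cyp2d26, Cyp2b10 and Cyp2j5 separate by culture in both origins, Cyp2c55 is highest in bilCLiP 3D, Cyp2e1 stays below 5 CPM everywhere and Cyp2s1 is lowest in bilCLiP 3D.

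Upstream sequences help to see what some of the Cyp2c genes share. HNF4A, a nuclear receptor of hepatocytes, binds the run CAAAGTCCA, which was searched on both strands in the 250 bases before the RefSeq start site (GRCm38.p6, not the GRCm39 build of the counts). The promoter table holds 40 of the 49 genes, 13 of them Cyp2c genes. The run occurred in 6 of these 40, all Cyp2c genes on chromosome 19 (Cyp2c40, Cyp2c65, Cyp2c67, Cyp2c68, Cyp2c69 and Cyp2c70), and in 0.384% of 32851 promoters of the table. It was absent from Cyp2c29, Cyp2c37, Cyp2c38 and Cyp2c50, which rose in both origins as well. Some of the 6 are close copies, so their sequences are not independent. The 4 that rose in both origins are printed first, 5′ to 3′ on the gene's own strand, then Cyp2c29, which lacks the run. Capitals mark the HNF4 run and the other runs searched: AGGTCA (the half-site of many nuclear receptors), GTTAAT (HNF1), TTGCNNAA (C/EBP), TTANGTAA (DBP, TEF and HLF) and TATAAA (the TATA box), or their reverse complements.

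Cyp2c65 (chr19:39060756-39061005, plus strand): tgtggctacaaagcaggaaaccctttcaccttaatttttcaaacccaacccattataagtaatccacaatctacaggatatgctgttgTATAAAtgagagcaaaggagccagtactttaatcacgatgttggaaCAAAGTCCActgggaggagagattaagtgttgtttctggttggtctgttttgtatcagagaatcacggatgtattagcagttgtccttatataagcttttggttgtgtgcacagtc
Cyp2c67 (chr19:39649043-39649292, minus strand): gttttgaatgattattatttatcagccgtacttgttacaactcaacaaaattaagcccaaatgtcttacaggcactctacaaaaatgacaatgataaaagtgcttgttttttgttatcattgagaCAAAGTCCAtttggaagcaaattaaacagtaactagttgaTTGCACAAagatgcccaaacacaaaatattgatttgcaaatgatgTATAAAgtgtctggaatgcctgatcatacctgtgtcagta
Cyp2c68 (chr19:39741102-39741351, minus strand): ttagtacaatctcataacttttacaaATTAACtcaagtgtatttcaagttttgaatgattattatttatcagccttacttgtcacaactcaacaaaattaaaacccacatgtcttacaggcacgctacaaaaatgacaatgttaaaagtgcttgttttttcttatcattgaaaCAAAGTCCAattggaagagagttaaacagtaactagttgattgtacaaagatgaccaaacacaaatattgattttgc
Cyp2c70 (chr19:40187287-40187536, minus strand): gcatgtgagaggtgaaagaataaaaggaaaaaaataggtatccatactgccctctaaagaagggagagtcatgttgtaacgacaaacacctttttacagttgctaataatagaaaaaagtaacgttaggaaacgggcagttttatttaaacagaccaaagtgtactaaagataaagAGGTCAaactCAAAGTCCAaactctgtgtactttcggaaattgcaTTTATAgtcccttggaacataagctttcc
Cyp2c29 (chr19:39286835-39287084, plus strand): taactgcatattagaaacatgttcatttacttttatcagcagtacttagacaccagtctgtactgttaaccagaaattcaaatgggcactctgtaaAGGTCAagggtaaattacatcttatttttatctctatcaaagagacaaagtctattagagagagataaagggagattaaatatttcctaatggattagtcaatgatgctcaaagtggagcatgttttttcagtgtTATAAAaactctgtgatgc

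The HNF4 run lies 116 to 108 bases before the start site in Cyp2c65, 125 to 117 in Cyp2c67, 77 to 69 in Cyp2c68 and 64 to 56 in Cyp2c70. In Cyp2c70 an AGGTCA stands just before it, 74 to 69 bases from the start. Among the 20 genes that rose in both origins and are in the table, 4 held the HNF4 run, 13 the TATA box, 4 AGGTCA, 5 the C/EBP run, 3 the HNF1 run and 1 the run of DBP, TEF and HLF. Over all promoters of the table the shares were 0.384% for the HNF4 run, 12.4% for the TATA box, 14% for AGGTCA, 9.56% for C/EBP, 6.43% for HNF1 and 2.06% for DBP, TEF and HLF. A match of letters is not a bound site, and no binding was measured here.

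In the Cyp2d subfamily, relatives of the human drug oxidase CYP2D6, all 7 tested of 9 genes were called higher in both origins. The shares of all tested genes called higher were 16.9% in hepCLiP and 15.8% in bilCLiP. Cyp2d40, with no 2D count, passed the filter only through its 3D level. Cyp2d26, an abundant Cyp2d enzyme of liver, had 7.86, 1.86 and 7.29 CPM in hepCLiP 2D and 658, 719 and 438 in hepCLiP 3D. Levels in bilCLiP were 0, 1.67 and 1.69 CPM in 2D and 200, 415 and 266 in 3D. The cultures did not overlap, and every hepCLiP 3D library lay above every bilCLiP 3D library. It rose 107-fold (6.74 ± 0.90, adjusted p = 0.000423) and 260-fold (8.02 ± 0.97, adjusted p = 0.000283).

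Cyp2d10 had 1.02, 0.182 and 1.60 CPM in hepCLiP 2D and 368, 517 and 295 in 3D, against 0, 0.466 and 0.592 in bilCLiP 2D and 233, 595 and 363 in 3D. Cultures were fully apart and the 3D ranges of the 2 origins overlapped. It rose 423-fold (8.72 ± 0.85, adjusted p = 9.96e-05, 9.34 without 2D replicate 3) and 1105-fold (10.11 ± 0.91, adjusted p = 6.81e-05). Cyp2d9, a steroid hydroxylase that is higher in livers of male mice, had 0.231, 0.182 and 2.30 CPM in hepCLiP 2D and 130, 288 and 142 in 3D. It rose 209-fold (7.71 ± 0.87, adjusted p = 0.00018), or 9.77 on the log2 scale without 2D replicate 3. In bilCLiP it had a count only in 2D replicate 3 (0.0911 CPM) and 131, 292 and 157 CPM in 3D, a count ratio of 6959 (95% interval 1926 to 57471, adjusted p = 8.91e-05). Cyp2d9, Cyp2d10 and Cyp2d11 share 9.86%, 14.9% and 12.2% of their 100-base windows with other genes.

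Cyp2d22, often set beside human CYP2D6, had the highest mean 2D level of the Cyp2d genes in both origins, though not in hepCLiP 2D replicate 3, where Cyp2d26 (7.29 CPM) and Cyp2d9 (2.30) lay above it. It had 24.8, 11.8 and 1.45 CPM in hepCLiP 2D and 54.6, 79.2 and 46.6 in 3D, and 15.5, 12 and 21.9 in bilCLiP 2D and 77.3, 88.5 and 54.6 in 3D. The groups did not overlap, with hepCLiP 2D replicate 3 the lowest library. It rose only 4.73-fold (2.24 ± 0.69, adjusted p = 0.0279) and 4.46-fold (2.16 ± 0.69, adjusted p = 0.036). The hepCLiP change was 3.18 on the log2 scale without 2D replicate 1, and its call was lost without 2D replicate 2 (adjusted p = 0.0793), 3D replicate 2 (0.0779), with no filter (0.108) and with only the 2 hepCLiP groups in the fit (0.0807). The bilCLiP call was lost without any 1 of the 6 bilCLiP libraries (adjusted p 0.054 to 0.111) with no filter (0.134) and by limma on the authors' normalized counts (0.059).

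Cyp2d40 and Cyp2d13 are less studied members of the same cluster. Cyp2d40 had no 2D count, and 11.4, 11 and 2.29 CPM in hepCLiP 3D against 1.32, 3.10 and 2.38 in bilCLiP 3D, which makes it at least 173-fold and at least 54.5-fold higher in 3D (adjusted p = 0.00108 and 0.00267). Cyp2d13 had 13.9, 13.2 and 2.22 CPM in hepCLiP 3D against 0.395, 1.78 and 0.812 in bilCLiP 3D, with groups that did not overlap. Its hepCLiP count ratio, 3D over 2D, was 308 (84.7 to 2552, adjusted p = 0.00148), with its only 2D counts in replicate 1, and in bilCLiP it was at least 24.2-fold higher (adjusted p = 0.00752, at least 14.6-fold without 3D replicate 2). Cyp2d11 had 2.42, 1.35 and 1.39 CPM in hepCLiP 3D against 2.44, 3.67 and 1.16 in bilCLiP 3D, and was called in both origins (adjusted p = 0.00241 and 0.000999). The untested Cyp2d12 and Cyp2d34 stayed below 0.69 CPM.

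In the Cyp2a subfamily, Cyp2a5, which oxidises coumarin and nicotine as human CYP2A6 does, had 0, 0.318 and 0.250 CPM in hepCLiP 2D and 34.7, 260 and 81.8 in 3D. Levels in bilCLiP were 0.0431, 5.33 and 0.592 CPM in 2D and 19.4, 1047 and 73.1 in 3D. Replicate 2 was the highest library of all 4 groups, and in bilCLiP 3D it held 54.1 times the CPM of replicate 1. The cultures did not overlap, and it rose 643-fold (9.33 ± 2.13, adjusted p = 0.00678) and 187-fold (7.55 ± 1.81, adjusted p = 0.0102). The hepCLiP value was 8.22 without 3D replicate 2 and 9.95 without 2D replicate 2. The bilCLiP value was 4.51 without 3D replicate 2, 10.22 without 2D replicate 2 and 8.14 without 3D replicate 1, and its call was lost with no filter (adjusted p = 0.0508).

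Cyp2a4, a steroid hydroxylase and close copy of Cyp2a5, had no 2D count, and 2.49, 2.91 and 2.02 CPM in hepCLiP 3D. In bilCLiP 3D it had 0.0659, 58.2 and 2.73 CPM, so that 1014 of its 1062 counts came from replicate 2. It was at least 504-fold higher in bilCLiP 3D (adjusted p = 0.0277), a call lost with no filter (0.166) and without each bilCLiP 2D library (0.0595 to 0.0632). Without 3D replicate 2 the bound was at least 35.0-fold. In hepCLiP it was at least 52.4-fold higher but did not pass (adjusted p = 0.0763), whereas a fit with a replicate block called it (adjusted p = 0.00257). Cyp2a4 shares 11.2% and Cyp2a5 14.4% of 100-base windows with other genes, mostly with each other, so reads may have moved between them. Their subfamily sum, with Cyp2a12 and Cyp2a22, rose by 8.95 ± 1.85 and 7.71 ± 1.66, by 8.01 in hepCLiP without 3D replicate 2, and in bilCLiP by 5.03 without 3D replicate 2 and 10.38 without 2D replicate 2.

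Cyp2a12, a steroid hydroxylase of liver, was more even. It had 0.185, 0.136 and 0.05 CPM in hepCLiP 2D and 39.0, 75.6 and 21.1 in 3D, and rose 343-fold (8.42 ± 0.73, adjusted p = 0.000131, 7.84 without 3D replicate 2). In bilCLiP 2D it had no count, in 3D 21.1, 37.5 and 16.5 CPM, at least 596-fold higher (adjusted p = 0.000119). Cyp2a22 was below 0.36 CPM throughout and not tested.

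In the Cyp2b subfamily, Cyp2b10, the classic target of the receptor CAR and of phenobarbital, was the only one tested of 5 genes. It had 0.139, 0.0455 and 0.799 CPM in hepCLiP 2D and 84.7, 85.7 and 191 in 3D, against 0, 0.155 and 0.137 in bilCLiP 2D and 16.5, 106 and 55.5 in 3D. Every 3D library lay above every 2D library, with bilCLiP 3D replicate 1 the lowest of the 3D libraries. It rose 371-fold (8.53 ± 0.98, adjusted p = 0.000196) and 565-fold (9.14 ± 1.08, adjusted p = 0.00023). The values were 10.26 without hepCLiP 2D replicate 3 and 8.42 without bilCLiP 3D replicate 2. Cyp2b9, higher in livers of female mice, was below the filter: it had 0.952, 1.63 and 0.0695 CPM in hepCLiP 3D, 0 in every bilCLiP 3D library and at most 0.0463 in 2D. Cyp2b13 had a count in 1 library only.

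Cyp2e1 and Cyp2f2 turn small molecules into reactive products. Cyp2e1, the ethanol and acetaminophen oxidase of pericentral hepatocytes, had 1.39, 2.27 and 0 CPM in hepCLiP 2D and 2.78, 4.97 and 0.208 in 3D. The groups overlapped and the change did not pass (1.11 ± 1.24, adjusted p = 0.527), with 1.92 without 2D replicate 2 and 0.28 without 3D replicate 2. The bilCLiP libraries had no 2D count and 0.725, 1.03 and 0.464 CPM in 3D, at least 17.5-fold higher at an adjusted p of 0.0473. That call was lost with no filter (0.108), by limma on the authors' normalized counts (0.0571) and in 10 of the 12 fits that left out 1 library, without each bilCLiP library (0.0714 to 0.106) and without hepCLiP replicates 1 or 2 of either culture (0.0545 to 0.0667). Its share of the family's summed CPM in 3D was 0.0848% for hepCLiP and 0.0293% for bilCLiP.

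Cyp2f2, which activates naphthalene in lung and is found in periportal hepatocytes, had 0.0925, 0.0455 and 0.0999 CPM in hepCLiP 2D and 3.59, 8.09 and 8.41 in 3D. It rose 78.4-fold (6.29 ± 0.95, adjusted p = 0.00076). The bilCLiP libraries had 0.0431, 0 and 0 CPM in 2D and 0.198, 2.41 and 0.812 in 3D, a count ratio of 83.9 (95% interval 14.5 to 3370, adjusted p = 0.00302). The fitted log2 fold change in bilCLiP was 7.41 without 2D replicate 1 and 4.64 without 3D replicate 2. The only bilCLiP 2D count was in replicate 1, so the size of 7.41 depends on the prior count. Every bilCLiP 3D library lay below every hepCLiP 3D library.

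The Cyp2j subfamily, epoxygenases of heart, kidney and liver, had 8 genes, 3 of them tested, and all 3 rose in both origins. Cyp2j5 had 0.971, 0.364 and 1.85 CPM in hepCLiP 2D and 86.4, 45.5 and 37.7 in 3D. Levels in bilCLiP were 0.560, 0 and 0.228 CPM in 2D and 266, 22.0 and 55.3 in 3D. Here replicate 1, not replicate 2, was the highest 3D library of both origins. It rose 53.5-fold (5.74 ± 1.05, adjusted p = 0.00214, 6.39 without 2D replicate 3) and 435-fold (8.77 ± 1.24, adjusted p = 0.000657). The bilCLiP value was 9.99 without 2D replicate 1, 8.15 without 2D replicate 2 and 7.22 without 3D replicate 1.

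Cyp2j6, like Cyp2d22 and Cyp2s1, was among the genes with the highest 2D levels: 21.6, 15.5 and 7.94 CPM in hepCLiP and 33.8, 10.2 and 14.2 in bilCLiP. In 3D it had 52.6, 37.0 and 37.0 CPM in hepCLiP and 118, 68.4 and 48.8 in bilCLiP, with no overlap between cultures. It rose 2.80-fold (1.49 ± 0.50, adjusted p = 0.0396) and 4.06-fold (2.02 ± 0.50, adjusted p = 0.0121, log2 2.69 without 2D replicate 1). The hepCLiP call was lost without hepCLiP 2D replicate 2 (0.0889) or 3 (0.124), any hepCLiP 3D library (0.0614 to 0.0959) or bilCLiP 3D replicate 2 (0.0523), and with no filter (0.117). Cyp2j9 rose by 4.40 ± 1.38 (adjusted p = 0.0295) and 4.79 ± 1.32 (adjusted p = 0.0196) from at most 0.258 CPM in 2D to 0.402 to 5.80 in 3D. Its hepCLiP call was lost without 2D replicates 1 or 2 or 3D replicates 1 or 2 (0.0515 to 0.0887) and its value was 5.65 without 2D replicate 3. Its bilCLiP call was lost without 2D replicates 2 or 3 or 3D replicate 1 (0.062 to 0.0764), and its value was 8.56 without 2D replicate 1 and 3.37 without 3D replicate 1. All 6 of its bilCLiP 2D counts came from replicate 1, so the size of 8.56 depends on the prior count. Cyp2j8 and Cyp2j11 stayed below 0.53 CPM.

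Outside the drug-oxidising subfamilies the picture differed from gene to gene. Cyp2r1, the main vitamin D hydroxylase of liver, had 0.925, 0.0909 and 0.899 CPM in hepCLiP 2D and 8.86, 0.993 and 6.25 in 3D. It rose 8.36-fold (3.06 ± 0.92, adjusted p = 0.0252), a call lost without 2D replicates 2 (0.0607) or 3 (0.0524) or 3D replicates 1 (0.0753) or 3 (0.0556), and with only the 2 hepCLiP groups in the fit (0.0584). Its bilCLiP levels, 0.603, 0.389 and 0.364 CPM in 2D and 0.790, 3.85 and 1.91 in 3D, gave a change that did not pass (2.26 ± 0.92, adjusted p = 0.0861). A fit with a replicate block called it (adjusted p = 0.0178), as did DESeq2 (0.0325), and without 3D replicate 2 the value was 1.57.

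Cyp2s1, an epithelial P450 induced by dioxin that is scarce in liver, was the gene that went down. It had 9.02, 6.00 and 6.39 CPM in hepCLiP 2D and 2.49, 0.213 and 5.98 in 3D. The bilCLiP libraries had 5.25, 12.1 and 8.15 CPM in 2D and 0.198, 0.631 and 0.290 in 3D. In both origins every 3D library lay below every 2D library, by a narrow margin for hepCLiP 3D replicate 3. It fell in bilCLiP (-4.48 ± 0.92, adjusted p = 0.00467, -5.08 without 3D replicate 2) and was not called in hepCLiP (-1.30 ± 0.78, adjusted p = 0.222, -2.40 without 3D replicate 3). Sprr1a and Krt19, given with the markers, moved down in the same contrast, and their part in this was not tested. The 250 bases before its start site hold none of the 6 runs searched:

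Cyp2s1 (chr7:25816526-25816775, minus strand): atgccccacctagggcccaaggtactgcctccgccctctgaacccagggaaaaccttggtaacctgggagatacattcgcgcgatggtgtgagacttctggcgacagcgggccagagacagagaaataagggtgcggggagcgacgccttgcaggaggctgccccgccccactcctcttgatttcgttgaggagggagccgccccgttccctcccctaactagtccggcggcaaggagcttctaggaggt

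Cyp2u1, a fatty acid hydroxylase known from brain and thymus, had 2.50, 1.05 and 1.70 CPM in hepCLiP 2D, 2.86, 2.55 and 1.39 in hepCLiP 3D, 2.11, 1.71 and 1.32 in bilCLiP 2D and 1.65, 4.48 and 2.03 in bilCLiP 3D. The groups overlapped and neither change passed (0.37 ± 0.49, adjusted p = 0.586, and 0.66 ± 0.48, adjusted p = 0.33). Cyp2t4, not tested, had 0.0463 to 0.631 CPM in all 12 libraries. Cyp2g1, of the olfactory mucosa, had a count in 2 libraries, and Cyp2w1, of fetal colon, in 1.

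The make-up of the family changed with culture. Per kilobase of the longest coding transcript (GENCODE M21), hepCLiP 2D was led by Cyp2d22 (4.58 ± 4.23 CPM per kb, mean ± SD, n = 3) and Cyp2j6 (4.17 ± 1.90), followed by Cyp2d26 (3.34 ± 1.95), Cyp2c29 (3.10 ± 4.94) and Cyp2s1 (2.26 ± 0.519). In bilCLiP 2D the same pair led, with Cyp2d22 at 5.95 ± 1.81 and Cyp2j6 at 5.37 ± 3.50 CPM per kb, and Cyp2s1 (2.69 ± 1.09) and Cyp2c68 (1.88 ± 1.76) followed. In hepCLiP 3D the order was Cyp2c29 (399 ± 130), Cyp2d26 (356 ± 86.8), Cyp2c70 (246 ± 199), Cyp2d10 (239 ± 68.5) and Cyp2d9 (109 ± 51.4). In bilCLiP 3D it was Cyp2c29 (318 ± 190), Cyp2d10 (241 ± 112), Cyp2a5 (189 ± 287), Cyp2d26 (173 ± 65.0) and Cyp2c70 (132 ± 119). The mean ± SD ranges of neighbours in these orders overlap, apart from those of Cyp2d10 and Cyp2d9 in hepCLiP 3D.

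**Figure D4:**
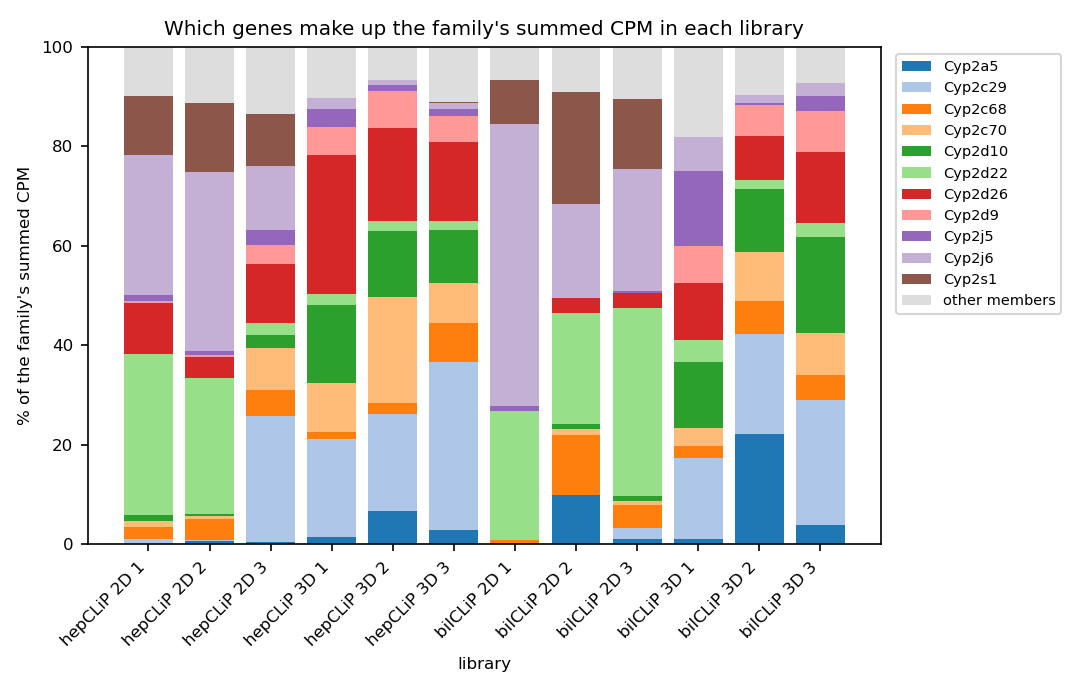
Share of the family's summed CPM held by its most abundant genes in each of the 12 libraries, as stacked bars that reach 100%. Cyp2d22, Cyp2j6 and Cyp2s1 fill much of the 2D bars (in hepCLiP 2D replicate 3, Cyp2c29 leads) and little of the 3D bars, which Cyp2c29, Cyp2d26, Cyp2d10 and Cyp2c70 fill, and Cyp2a5 takes 22.3% of bilCLiP 3D replicate 2.

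By subfamily, and on counts that are not length-corrected, Cyp2c genes held 20.1% of the family's summed CPM in hepCLiP 2D and 43.2% in 3D, and 11.4% and 40.0% in bilCLiP. The hepCLiP 2D libraries differed, with 7.41%, 6.74% and 46.2%, so that replicate 3 lay above the 3D mean. Cyp2d genes held 32.5% and 42.9% in hepCLiP and 31.4% and 37.2% in bilCLiP. The Cyp2j share went from 27.5% to 3.64% and from 34.0% to 9.95% (22.3%, 1.93% and 5.63% in the bilCLiP 3D libraries), and the Cyp2s1 share from 12% to 0.110% and from 15.1% to 0.0134%. Single libraries differed in the gene with the most counts: among the 3D libraries it was Cyp2d26, Cyp2c70 and Cyp2c29 in hepCLiP and Cyp2c29, Cyp2a5 and Cyp2c29 in bilCLiP. Subfamily sums, which do not depend on how reads were split between copies of a subfamily, gave log2 fold changes of 6.73 and 7.46 for Cyp2c, 5.96 and 5.75 for Cyp2d, 8.48 and 8.80 for Cyp2b and 2.63 and 3.31 for Cyp2j in hepCLiP and bilCLiP. All 8 of these were called (adjusted p from 5.41e-05 to 0.00961). Without 1 library the sums moved by over 1.5 times for Cyp2c (8.25 without hepCLiP 2D replicate 3, 6.81 without bilCLiP 3D replicate 2), Cyp2b (9.96 and 8.08 without the same libraries), Cyp2d (6.57 without hepCLiP 2D replicate 1) and Cyp2j (4.0 and 2.34 without bilCLiP 2D or 3D replicate 1).

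In the RefSeq table most of the genes lie in clusters. All 5 tested Cyp2d genes with an entry on chromosome 15 rose in both origins, as did the 3 tested Cyp2j genes on chromosome 4. On chromosome 19, 8 of 9 tested Cyp2c genes rose in hepCLiP and 9 of 9 in bilCLiP. Of 8 tested genes on chromosome 7, 5 rose in hepCLiP, and 6 rose and 1 fell in bilCLiP. The Cyp2a and Cyp2b genes, Cyp2f2 and Cyp2s1 lie together there (windows starting at 25816526 to 27153464). Cyp2r1 (114562973) and Cyp2e1 (140763569) lie far from them. Of the genes not called in hepCLiP, Cyp2a4 was at least 52.4-fold higher in 3D. Among all tested genes, 16.9% were called higher and 17.9% lower in hepCLiP, and 15.8% and 14.5% in bilCLiP.

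How much the 3D libraries of one group differed depended on the gene. The highest 3D library held a median of 2.36 times the lowest over the 30 tested genes in hepCLiP and 3.64 times in bilCLiP. The ratio ran from 1.14 (Cyp2c23) to 28.1 (Cyp2s1) in hepCLiP and from 1.46 (Cyp2c50) to 884 (Cyp2a4) in bilCLiP, with 3 and 7 genes above 10. In bilCLiP, replicate 2 was highest for 25 of the 30 genes, replicate 1 for 5 and replicate 3 for none. In hepCLiP the highest library was replicate 1 for 10 genes, replicate 2 for 12 and replicate 3 for 8. These genes share their libraries and are not independent.

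Between cells of hepatocyte and biliary origin, edgeR called no gene of the family in either culture, and DESeq2 called a few. Between bilCLiP and hepCLiP in 2D, 0 of the 30 genes were called by edgeR, against 0.0811% of all genes called higher and 0.0541% called lower. At an unadjusted p under 0.05 there were 6 genes, all lower in bilCLiP, against 14.5% of all genes in either direction, and the smallest adjusted p was 0.214. DESeq2 called 2, both lower in bilCLiP: Cyp2e1, at least 29.7-fold lower as bilCLiP 2D had no count (edgeR adjusted p = 0.214), and Cyp2d9, with a count ratio of 0.0326 (0.00386 to 0.124, edgeR adjusted p = 0.225). Both are named because DESeq2 called them. The fitted log2 difference of Cyp2d9 was -4.67, with -2.61 without hepCLiP 2D replicate 3 and -7.05 without bilCLiP 2D replicate 3. That last library held the only bilCLiP 2D counts of Cyp2d9, so the size of -7.05 depends on the prior count. The difference of Cyp2e1, whose size also depends on the prior count, was -7.54, with -6.71 without hepCLiP 2D replicate 2. Its hepCLiP 2D counts were 30, 50 and 0, so the 2 groups overlapped. Libraries of the 2 origins did not overlap in 2D for 5 genes, Cyp2a12, Cyp2c67, Cyp2d9, Cyp2d26 and Cyp2f2, all lower in bilCLiP, against 11.9% of all genes lower and 9.06% higher without overlap. Cyp2a12 and Cyp2c67 had only 8 counts each in hepCLiP 2D and 0 in bilCLiP 2D. Cyp2f2 had 5 and 1, so the separation of these genes rests on very few counts. The summed level differed by -0.05 on the log2 scale (exact two-sided permutation p = 0.8).

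In 3D, 0 of the 30 genes were called by edgeR between origins, against 0.0541% of all genes higher and 0.0473% lower. At an unadjusted p under 0.05 there were 6, 2 higher and 4 lower in bilCLiP, against 16.6% of all genes. DESeq2 called 4: Cyp2c55 was higher in bilCLiP, and Cyp2s1 (log2 -2.92 ± 0.89, edgeR adjusted p = 0.188), Cyp2d13 (-3.28 ± 0.89, 0.174) and Cyp2f2 (-2.54 ± 0.75, 0.179) were lower. Libraries did not overlap for Cyp2c55, higher, and for Cyp2d13, Cyp2f2, Cyp2c23 and Cyp2d26, lower, against 11.7% of all genes higher and 10.1% lower. The differences of Cyp2s1, Cyp2d13 and Cyp2f2 were -3.53, -4.0 and -3.70 without bilCLiP 3D replicate 2, and Cyp2s1 was -1.82 without hepCLiP 3D replicate 3. With the RosaYFP libraries only, the Cyp2s1 difference turned to 0.80; the 1 hepCLiP 3D library left had 0.213 CPM. The summed level differed by -0.23 (exact p = 0.6). The test of a difference in the culture effect between origins called 0 of the 30 genes by edgeR and 0 of the 17 that DESeq2 tested, with 0% of all genes called higher and 0% lower by edgeR. At an unadjusted p under 0.05 there were 4 of 30, against 3.6% of all genes. With 3 libraries a group, a p that misses the threshold does not show that the origins are alike.

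Genes that serve P450 enzymes had medians close to that of all genes. Of 8 electron transfer partners, 1 rose and 1 fell in each origin, with a median log2 fold change of 0.31 in hepCLiP and 0.43 in bilCLiP. Over all genes, 16.9% were called higher and 17.9% lower in hepCLiP, and 15.8% and 14.5% in bilCLiP, so these counts are near the background. The same shares are the background of each list that follows. Por, the electron donor of all microsomal P450s, had 251, 264 and 197 CPM in hepCLiP 2D, 176, 216 and 226 in hepCLiP 3D, 87.1, 191 and 172 in bilCLiP 2D and 129, 351 and 174 in bilCLiP 3D. The groups overlapped, and neither change passed (-0.20 ± 0.37, adjusted p = 0.698, and 0.54 ± 0.37, adjusted p = 0.293). Cyb5r3, cytochrome b5 reductase, rose by 0.98 and 0.82, the latter lost without bilCLiP 2D replicate 1 or 3D replicates 2 or 3, and its relative Cyb5r1 fell by 1.20 and 1.02 on the log2 scale.

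Of 13 genes of haem synthesis and turnover, 6 rose and none fell in hepCLiP, and 5 rose and 1 fell in bilCLiP (medians 0.28 and 0.21). Alas1, the first and rate-limiting enzyme of haem synthesis, had 92.8, 80.8 and 78.9 CPM in hepCLiP 2D and 223, 177 and 194 in 3D, and 60.7, 66.5 and 57.1 in bilCLiP 2D and 91.5, 153 and 100 in 3D. It rose by 1.23 ± 0.19 (adjusted p = 0.000773) and 0.90 (adjusted p = 0.0047) with no overlap between cultures. Alad, the next enzyme, rose by 1.09 and 1.47, and Blvrb, biliverdin reductase B, by 2.87 and 2.83 (3.85 in bilCLiP without 2D replicate 2). Hmox1, which breaks haem down, fell in bilCLiP (-1.51, adjusted p = 0.00638) and was not called in hepCLiP (-0.49, adjusted p = 0.266).

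**Figure D5:**
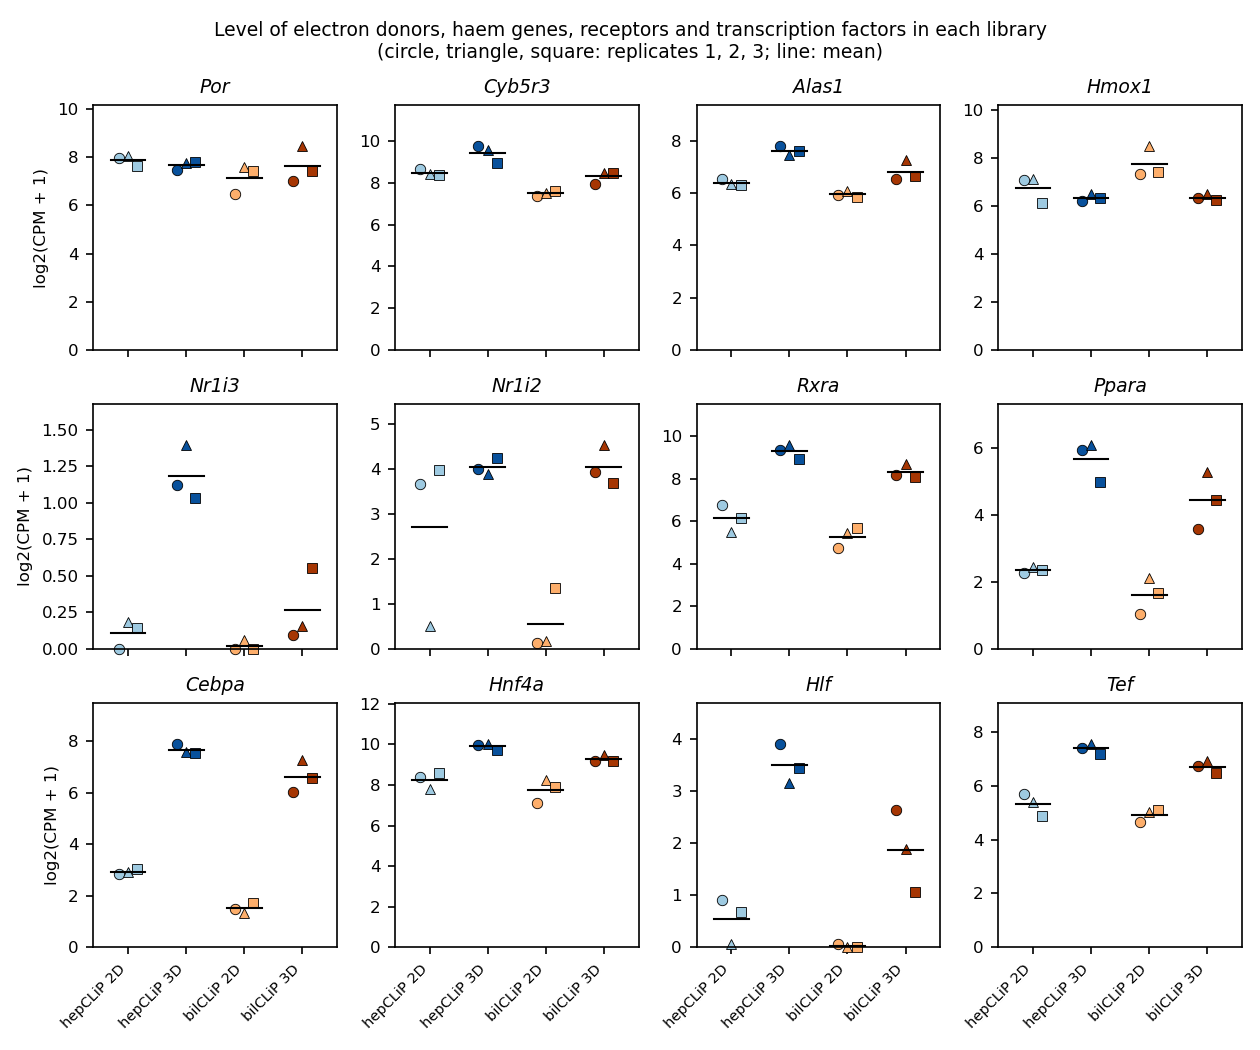
Levels of 12 genes outside the family as log2(CPM + 1), 1 panel per gene, 1 point per library and a line at each group's mean. Por overlaps across the 4 groups, Cebpa, Rxra and Ppara are higher in 3D in both origins, Nr1i3 stays below 2 CPM and Nr1i2 is low in bilCLiP 2D and in 1 hepCLiP 2D library.

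Among 14 tested nuclear receptors and partners, 6 rose and 1 fell in hepCLiP, and 8 rose and 1 fell in bilCLiP (medians 0.43 and 0.44). Nr1i3, the receptor CAR, had 0, 0.136 and 0.0999 CPM in hepCLiP 2D and 1.17, 1.63 and 1.04 in 3D, and rose by 3.92 ± 0.90 (adjusted p = 0.00691, 4.55 without 2D replicate 2). In bilCLiP it had 0, 0.0389 and 0 CPM in 2D and reached only 0.0659, 0.115 and 0.464 CPM in 3D. The size of its bilCLiP change therefore depends on the prior count. Its bilCLiP call (3.45 ± 1.17, adjusted p = 0.0458) was lost with a replicate block, with no filter, by limma on the authors' normalized counts and in 10 of 12 fits that left out 1 library, with values of 5.03 without 2D replicate 2 and 2.26 without 3D replicate 3. Nr1i2, the receptor PXR, had 11.6, 0.409 and 14.8 CPM in hepCLiP 2D and 15.1, 13.9 and 17.9 in 3D, a change that did not pass (0.81, adjusted p = 0.566). The bilCLiP libraries had 0.0861, 0.117 and 1.55 CPM in 2D and 14.2, 22.2 and 11.8 in 3D, and rose by 4.79 (adjusted p = 0.0126, 7.21 without 2D replicate 3). Rxra, the partner of both receptors, rose by 3.11 and 3.05, and Ppara, the fatty acid receptor, by 3.68 and 3.41. Nfe2l2, the oxidant-response factor NRF2, fell by 1.14 and 0.67 on the log2 scale, the latter lost without bilCLiP 2D replicates 2 or 3 or 3D replicates 2 or 3.

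Of 18 tested liver-enriched transcription factors, 13 rose and 2 fell in hepCLiP, and 11 rose and 1 fell in bilCLiP (medians 1.62 and 1.44). Cebpa had 6.20, 6.55 and 7.14 CPM in hepCLiP 2D and 237, 188 and 186 in 3D, and 1.81, 1.52 and 2.32 in bilCLiP 2D and 63.4, 153 and 93.9 in 3D. It rose by 4.94 ± 0.32 (adjusted p = 1.12e-05) and 5.78 ± 0.34 (adjusted p = 5.81e-06). Hnf4a was already present in 2D, with 332, 219 and 378 CPM in hepCLiP and 135, 299 and 238 in bilCLiP, and reached 997, 1047 and 834 and 571, 711 and 579 in 3D. It rose by 1.63 ± 0.29 and 1.47 ± 0.29 (adjusted p = 0.00174 and 0.00353). Hlf, a factor of the circadian PAR bZIP family, rose by 4.38 and 7.19 (5.04 without hepCLiP 2D replicate 1, 8.80 and 6.55 without bilCLiP 2D or 3D replicate 1). In bilCLiP 2D it had only 0.0431, 0 and 0 CPM, so the sizes of its bilCLiP values depend on the prior count. Foxa2 fell by 0.82 and 0.70 on the log2 scale in hepCLiP and bilCLiP.

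Other enzyme genes of the hepatocyte moved as well. Of 28 tested P450 genes outside the family, 20 rose and 2 fell in hepCLiP and 17 rose and 1 fell in bilCLiP, with medians of 3.83 and 3.48 beside the 6.49 and 8.20 of family 2. With genes that had no 2D count set to their lower bound, the medians were 3.83 and 3.29 beside 6.18 and 5.88. Of 16 other genes of drug oxidation and hydrolysis, 10 rose and 1 fell in hepCLiP and 11 rose and 1 fell in bilCLiP (medians 2.52 and 2.61). Aox3, an aldehyde oxidase, rose by 8.53 and 8.5 (9.58 without hepCLiP 2D replicate 1, 9.74 and 7.74 without bilCLiP 2D replicate 3 or 3D replicate 2). Aldh3a2, a fatty aldehyde dehydrogenase, fell by 0.85 on the log2 scale in both. Its call was lost without hepCLiP 2D replicate 3 or 3D replicates 1 or 2 and without bilCLiP 2D replicates 2 or 3 or 3D replicates 2 or 3. Around Cyp2r1, 4 of 5 tested genes of vitamin D metabolism rose in hepCLiP and 3 of 5 in bilCLiP, with Rxra, counted above, among them, and also Cyp27a1 (3.58 and 3.27) and Gc, the vitamin D carrier (3.18 and 3.55).

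The lobule sets the level of several of these P450s in liver, for example Cyp2e1, which is pericentral, and Cyp2f2, which is periportal. The periportal and pericentral lists that follow hold no gene of family 2, so they do not describe its genes by zone. Of 9 tested periportal genes, 7 rose and none fell in hepCLiP and 8 rose and none fell in bilCLiP (medians 6.38 and 6.97), among them the urea cycle genes Arg1 (10.70 and 10.73) and Cps1 (7.98 and 14.14). Cps1 had only 0, 0.0389 and 0.0456 CPM in bilCLiP 2D, so the size of 14.14 depends on the prior count. Arg1 was 11.39 without hepCLiP 2D replicate 3 and 11.33 or 9.11 without bilCLiP 3D replicates 1 or 2, and Cps1 was 10.60 or 7.26 without hepCLiP 2D or 3D replicate 3 and 12.75 without bilCLiP 3D replicate 2. Cps1 and Alb of this list are also among the hepatocyte markers. Of 9 tested pericentral genes, 3 rose and 3 fell in hepCLiP and 3 rose and none fell in bilCLiP (medians -0.36 and 0.32). Lgr5 and Axin2, targets of Wnt signalling, fell in hepCLiP (-4.47, adjusted p = 0.00356, and -2.19, adjusted p = 0.0227) and were not called in bilCLiP. The Axin2 call was lost without hepCLiP 2D replicate 2 or 3D replicates 1 or 3, and Lgr5 was -3.60 without 2D replicate 2. Rgn, regucalcin, rose by 7.62 and 9.15, and Cyp1a2, a pericentral P450 of caffeine oxidation, by 3.22 and 8.15. The Cyp1a2 value was 5.04 without hepCLiP 2D replicate 3 and 7.42 without bilCLiP 3D replicate 1, and its hepCLiP call was lost without 2D replicates 1 or 2 or 3D replicate 2 and with no filter. CHIR99021, which activates Wnt signalling, was present in all 4 groups.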

How the data were processed

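Raw counts per gene were deposited by the authors. The GRCm39 build and the tools DESeq2 (no version), featureCounts 2.0.1 and STAR 2.7.10b are named, without their roles, by the submitters' processing notes. Not given in the sources used here were the annotation, the strand setting and the handling of reads that match several genes. The authors also deposited a normalized signal, which equals the raw counts divided by 1 constant per sample. From the raw counts, edgeR 4.0.16 (R 4.3.3) gave TMM scaling, CPM, filterByExpr (14798 genes) and a robust quasi-likelihood fit of 4 group means over 12 samples, with 5 contrasts and Benjamini-Hochberg adjustment over all genes tested. All adjusted p-values come from this fit unless another tool is named.

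Where a group had no count of a gene, 3 counts over its libraries stood in for it and the fold is a lower bound. A group with 1 to 3 counts gives a count ratio with an exact 95% interval. PCR copies are not independent molecules, so both cover counting error only. A fitted change against such a group, also one left so by leaving out 1 library, depends in size on edgeR's prior count. Alternatives were DESeq2 1.42.0, RLE scaling, no filter, a non-robust fit, only the groups compared, a replicate block, RosaYFP libraries only, limma 3.58.1 on log2(normalized value + 1) and each library left out. Within each origin, 2D and 3D libraries of the same number departed from their group means in the same way (r across genes 0.432 to 0.513), so the number counts as a pairing. The fit of 4 group means leaves this pairing out, and the replicate block takes it in. The test was also run on simulated counts, with the same dispersion for every gene and no pairing. Those settings differ from the data, so no result here rests on that run.

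Shared sequence is the share of a transcript's 100-base windows (GENCODE M21) found in another gene, and promoters are from RefSeq on GRCm38.p6. The genes, the lists and the rule for named genes were chosen with earlier results of these data known. Named were 17 fixed genes of the family, the 4 most abundant per group, the 4 largest called rises and falls per contrast with at least 1 CPM, 6 fixed genes outside it and the 2 largest rises and falls per list, some of which are not reported here. The remaining genes of the family were added after their values were seen.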

Additional observations from a re-analysis of the deposited data

Results flagged for a closer look

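Reads were also counted on pseudogenes of the family, which lie outside the 49 genes. Of 23 such genes in the table, 4 stood out from 2D to 3D. Cyp2d41-ps had 787 counts in the 6 3D libraries together and 1 in the 6 2D libraries. Cyp2d37-ps had 750 counts in 3D and 5 in 2D. Cyp2d38-ps had 181 counts in 3D and 0 in 2D. Cyp2c53-ps had 123 counts in 3D and 1 in 2D. Whether these are transcripts of the pseudogenes or reads of Cyp2d and Cyp2c genes with like sequence was not tested. Adding all 23 to their subfamily sums changed no call of a subfamily.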

How the results depend on the processing

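Most of the rises held under other settings. The number of genes of the family called higher in hepCLiP 3D was 25, with a range of 21 to 27 when 1 library was left out and 9 with the RosaYFP libraries only, a comparison of 1 hepCLiP library per culture with the spread of the bilCLiP groups. In bilCLiP 3D it was 27, with 23 to 27 when 1 library was left out and 23 to 31 over all settings. Under a replicate block it was 26 in hepCLiP and 28 in bilCLiP, which adds Cyp2a4 and Cyp2r1, and the block changed no other call of the family. Between origins, where edgeR called 0, DESeq2 called 2 lower in 2D, and 1 higher and 3 lower in 3D. Leaving out 1 library gave 0 to 1 lower in 3D, the 1 being Cyp2b9 without hepCLiP 3D replicate 3, where it passed the filter. The summed level of bilCLiP against hepCLiP in 2D was -0.05 on the log2 scale, 0.01 (0.00973) with CPM by total counts, 0.0911 without Cyp2c29 and -0.27 to 0.15 with 1 library left out. In 3D it was -0.23, with -0.69 to 0.0239 when 1 library was left out. Cyp2s1 in 3D, bilCLiP against hepCLiP, was -2.92 and turned to 0.80 with the RosaYFP libraries only. Axin2 in bilCLiP was -0.33, with -1.17 to 0.0585 when 1 library was left out. The cause of each was not tested. Depth limits genes below about 1 CPM, and close copies limit Cyp2a4, Cyp2a5, Cyp2c40, Cyp2c67, Cyp2c68, Cyp2c69 and Cyp2d9 to Cyp2d11.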
